A study of Mus musculus with 38 samples.

Results

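MicroRNA genes were examined for the signal of nuclear periphery proteins over them in mouse embryonic stem (mES) cells. The set holds every gene that the deposited LAP2B, LMNB1 and IGG gene tables annotate with the biotype miRNA, which gave 2201 of the 78202 genes listed. Of these, 1189 carry a Mir symbol and 1012 carry another symbol, mostly a Gm number. The annotated hairpins are short, with a median length of 89 bp, so 1978 of them (89.9%) touched 1 bin of 1 kb and the other 223 touched 2.

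A microRNA is cut from a hairpin in a longer primary transcript by Drosha with Dgcr8 in the nucleus and then by Dicer1 in the cytoplasm. The mature strand, loaded into an Argonaute protein, pairs with target transcripts mainly through its seed, the bases from position 2 to position 8, and lowers their translation and stability. Many microRNA genes lie in introns or exons of host genes, and many are clustered and share a primary transcript. Embryonic stem cells are known for the miR-290 cluster of naive cells and the miR-302 cluster of primed cells. Several members of these clusters share a seed. By contrast, let-7 microRNAs accumulate on differentiation. The nuclear lamina is a meshwork of lamin proteins under the inner nuclear membrane, and the chromatin that touches it is mostly silent.

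CUT&RUN, in which an antibody guides a nuclease to cut and release the chromatin it binds, was read for LAP2B, an inner nuclear membrane protein, in naive mES cells and in epiblast-like cells (EpiLC) of 4 genotypes with 3 libraries each. WT cells carry the lamins and the lamin B receptor (LBR), LBRKO cells lack LBR, TKO cells lack all lamins, and QKO cells lack the lamins and LBR. LMNB1 (lamin B1) and IGG (a control antibody with no nuclear target) were read in WT cells of both stages, with 3 libraries each, so no mutant has its own IGG background. The TKO line is a littermate of the WT line, LBRKO cells were made from WT, and the QKO line is a clone made from TKO with a frameshift and an in-frame deletion in Lbr, so a feature of these lines cannot be told apart from their genotype. By the study's karyotyping, TKO cells carried an extra chromosome 8 and part of the WT cells had lost the Y chromosome or gained chromosomes 6 and 8. By the study's account LAP2B signal in EpiLC extends beyond the chromatin at the lamina and was not used there to define it, so EpiLC LAP2B values are given here as LAP2B signal only. CUT&RUN reads chromatin and not transcripts, so neither the stage labels nor the absence of the deleted proteins could be checked with marker genes.

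The mature sequences below are those the results turn on, from RefSeq (GRCm38.p6), written 5′ to 3′ with the seed in capitals. Of the 2201 genes, 1024 matched the RefSeq microRNA table and 1010 of these had a mature sequence there. The first 4 come from the miR-290 cluster and the next 3 from the miR-302 cluster, and they show that miR-291a, miR-294, miR-295, miR-302b and miR-302d share 1 seed although their genes lie on chromosomes 7 and 3.
miR-291a-3p: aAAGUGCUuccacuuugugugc
miR-294-3p: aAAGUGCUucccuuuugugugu
miR-295-3p: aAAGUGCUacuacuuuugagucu
miR-293-3p: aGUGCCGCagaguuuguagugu
miR-302b-3p: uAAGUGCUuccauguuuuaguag
miR-302c-3p: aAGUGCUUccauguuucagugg
miR-302d-3p: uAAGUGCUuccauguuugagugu

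The next are the miR-17 family, whose seed is shifted against the seed above by a base, and 2 microRNAs whose genes are described below for their large decreases.
miR-17-5p: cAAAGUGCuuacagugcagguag
miR-20a-5p: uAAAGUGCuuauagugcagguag
let-7c-5p: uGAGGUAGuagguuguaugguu
miR-205-5p: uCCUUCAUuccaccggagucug

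The last are mature microRNAs that are each encoded by 2 or 3 genes at separate places in the genome, shown because those copies differed in their WT LMNB1 class or in their LAP2B change.
miR-29b-3p: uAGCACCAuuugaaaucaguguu
miR-199a-5p: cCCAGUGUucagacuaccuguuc
miR-135a-5p: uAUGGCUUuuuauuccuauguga
miR-9-5p: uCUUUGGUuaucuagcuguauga

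The deposited values are spike-in scaled signal, and reads over the gene tables ranged from 12028659 to 45689196 per library, with a median of 8 to 31 reads per microRNA gene. Values are given on 2 scales. A relative level is the signal per bin divided by that of the median gene of the same library, so that 1 is the median gene, and the spike-in scale is the signal per bin as deposited. On the spike-in scale the median log2 change over all genes was -1.29 in naive QKO, -0.67 in naive TKO and 0.23 in naive LBRKO. The 2 scales can thus differ in direction. The 2201 genes occupy 2040 distinct sets of bins, because 278 of them share their bins with another microRNA gene and so have the same values. They form 1801 runs with gaps of up to 10 kb, of which 1654 hold 1 gene and 36 hold 3 or more (325 genes in all). Every library read 0 at 82 of them (3.73%, against 4.15% of all genes), and 2019 passed the filter on low values and were tested among 70317 genes.

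MicroRNA genes were spread over the whole range of LMNB1 signal in WT cells. When all genes were ranked by WT LMNB1 signal and divided into quartiles, the naive quartiles from the lowest to the highest held 515, 646, 551 and 489 microRNA genes, and 22.2% were in the highest. That share was 21.4% for protein-coding genes and 30.7% for snoRNA genes. Genes with a Mir symbol were in the highest quartile less often (18.1%) than microRNA genes with another symbol (27.1%). In EpiLC the 4 quartiles held 550, 499, 581 and 571 genes.

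Among single genes, Mir1903 had the highest naive level in both lamina readouts. It lies at chr8:129085722-129085801 (GRCm39) over an exon of Nrp1, a receptor for semaphorins and VEGF, and its LAP2B level in the naive WT libraries was 10, 12.3 and 8.1 times that of the median gene. Its LMNB1 level was 9.26 ± 0.686 and its IGG level 3.55 ± 0.690 (SD, n = 3). Mir1903 fell in naive QKO to 4.14, 3.50 and 5.61 (log2 change -1.19, SE 0.24, adjusted p = 2.76e-05 by limma). The groups did not overlap.

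The other extreme was a gene with a high control signal. Gm54587 (chr12:69206211-69206280), in an exon of the lncRNA Gm59647 and in the same bin as Gm54588, had the highest IGG level of the class, 12.5 ± 1.24 in naive WT, above its LAP2B level of 7.49 ± 1.93 and its LMNB1 level of 6.79 ± 1.25. Its values are given as measured, and the part that the control signal plays in them was not tested.

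The median microRNA gene stood at 0.977 ± 0.0405 of the library's median gene in naive WT LAP2B (SD, n = 3). The LBRKO value was 1.02 ± 0.0260, that of TKO 1.14 ± 0.0338 and that of QKO 1.27 ± 0.0545. In IGG it stood at 1.11. The naive QKO libraries (1.21 to 1.31) lay above all naive WT libraries (0.930 to 1.00) on this scale. With spike-in scaling the order was the reverse, with 0.463 ± 0.0556 in WT and 0.208 ± 0.0204 in QKO. Genes with a Mir symbol held the relative rise, from 0.977 ± 0.0405 to 1.70 ± 0.134 in naive QKO, while those with another symbol stood at 1.05 ± 0.0501 and 0.904 ± 0.0413. Protein-coding genes also rose on this scale, from 0.915 in naive WT to 1.31 in naive QKO, so a rise was not particular to microRNA genes. The snoRNA genes went from 1.21 to 0.947 and the snRNA genes from 1.05 to 0.849.

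By naive LMNB1 quartile, the difference in LAP2B signal between lamina-associated and other microRNA genes was present in WT and slightly reversed in naive QKO. It is given as a lamina contrast, the log2 ratio of the mean level of microRNA genes in the highest WT LMNB1 quartile to that in the lowest. In the naive WT libraries the contrast was 1.74, 2.09 and 1.68. It was 1.46, 1.06 and 1.29 in LBRKO and 1.08, 0.76 and 1.11 in TKO. In QKO it was -0.35, -0.15 and -0.31, so the genes with the most LMNB1 in WT carried slightly less LAP2B than those with the least. Each mutant lay below WT in all 3 libraries, and QKO lay below every other group.

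Among EpiLC libraries, WT had a contrast of 1.27 ± 0.11 (SD, n = 3) and LBRKO of 1.25 ± 0.05, while TKO stood at 0.90 ± 0.11 and QKO at 0.85 ± 0.01. With these classes the QKO value was thus positive in EpiLC and negative in naive cells. In EpiLC the contrast compares LAP2B signal between LMNB1 classes and is no measure of lamina contact, for the reason given above. Over all genes the naive contrasts were 1.99, 1.26, 1.08 and -0.32 in WT, LBRKO, TKO and QKO, and the EpiLC contrasts were 1.29, 1.17, 0.74 and 0.60. The IGG libraries themselves had a contrast of 0.58 ± 0.20 in naive and 0.84 ± 0.17 in EpiLC WT cells. The level of the contrast depends on how the classes are set. With classes by LMNB1 over IGG the naive values were 1.05, 0.10, -0.22 and -1.80 in the same order, and with the EpiLC classes naive QKO was at 0.75. WT was highest and QKO lowest of the 4 naive genotypes with either. QKO was negative in both stages with classes by LMNB1 over IGG and positive in both with the classes of the other stage. Its difference in sign between the stages thus depends on the classes.

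**Figure D1:**
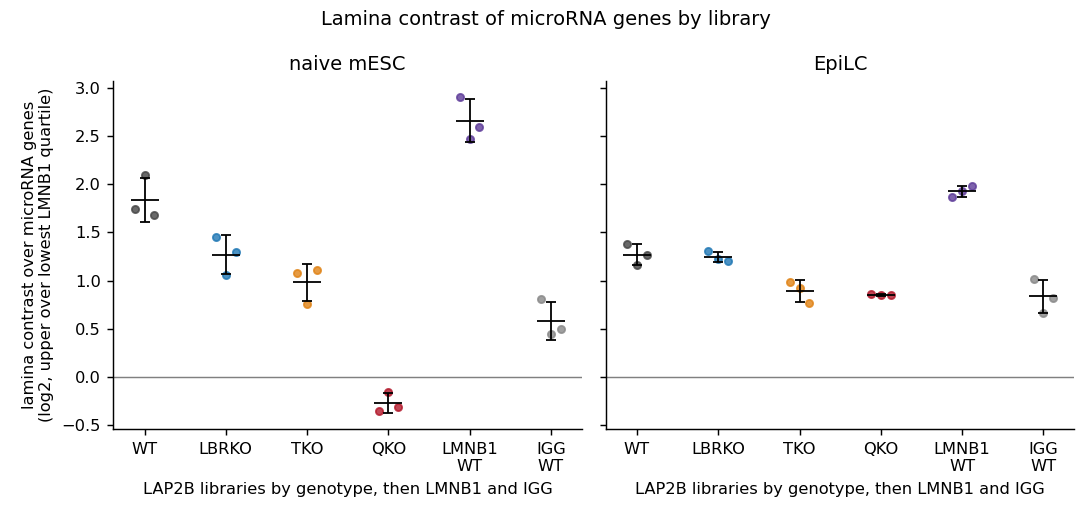
Lamina contrast of microRNA genes (log2 ratio of the mean level in the highest WT LMNB1 quartile to that in the lowest) by library, with naive cells in the left panel and EpiLC in the right. Points are libraries and bars are mean and SD; the naive QKO libraries lie between -0.35 and -0.15 and all naive WT libraries at or above 1.68.

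The comparison of each mutant with WT asks over which microRNA genes LAP2B signal changed. On the relative scale, 782 microRNA genes rose and 372 fell in naive QKO, which is 57.2% of the 2019 tested, against 72.9% of all 70317 genes and 58.3% of the 23064 genes that touch 1 or 2 bins. The share called thus stood near that of other genes of this size. By direction, 38.7% of the microRNA genes rose and 18.4% fell, while 27.8% of the short genes rose and 30.5% fell, as did 38.5% and 34.4% of all genes. When each library was divided by its mean in place of its median, 608 rose and 552 fell. The genes that rose lay in 731 distinct sets of bins and those that fell in 356.

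In naive LBRKO 333 microRNA genes rose and 237 fell (28.2%, against 34.5% of short genes and 55.1% of all genes, of which 30.8% rose and 24.3% fell). In naive TKO 379 rose and 171 fell (27.2%, against 25.4% of short genes and 47.1% of all genes, of which 24.8% rose and 22.3% fell). The mutants were compared with the same 3 WT libraries, so these counts are not independent of each other.

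On the spike-in scale most calls in cells without lamins were decreases. In naive QKO 237 microRNA genes rose and 982 fell (75.1% of all genes were called), and their median change was -0.96 against -1.29 for all genes. In naive TKO 68 rose and 517 fell (48.3% of all genes called), with a median of -0.53 against -0.67. Naive LBRKO kept more increases, with 346 higher and 164 lower (44.4% of all genes called).

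**Figure D2:**
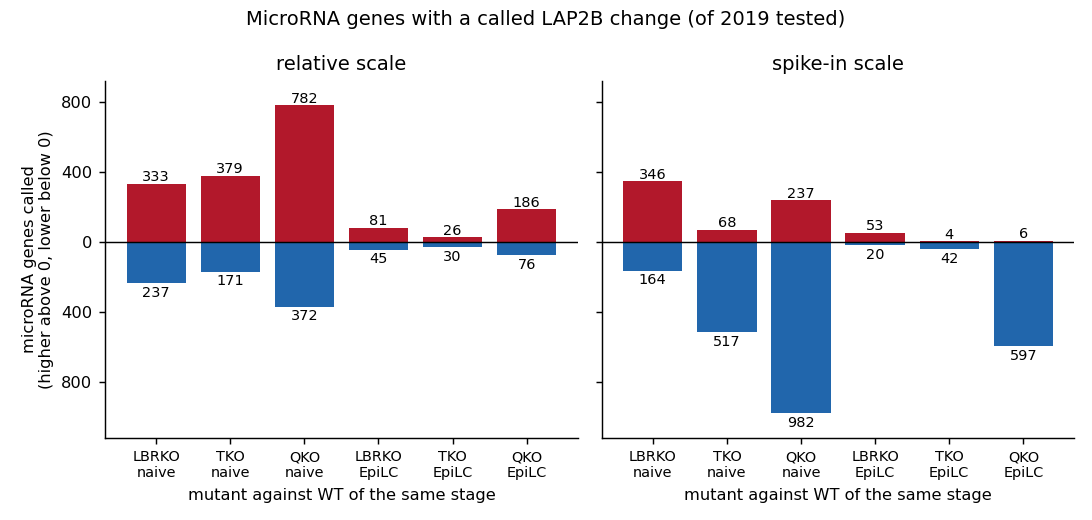
Number of the 2019 tested microRNA genes called higher (above 0) or lower (below 0) than WT by limma in LAP2B, for each mutant and stage, on the relative scale and on the spike-in scale. In naive QKO 782 rose and 372 fell on the relative scale and 237 rose and 982 fell on the spike-in scale.

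The direction of change in naive QKO followed the WT LMNB1 quartile of the gene. Of the microRNA genes tested in the lowest quartile, 265 of 387 rose and 1 fell, with a median change of 1.57. In the second quartile 330 of 598 rose and 22 fell (median 1.11), and in the third 130 of 545 rose and 109 fell (median -0.20). In the highest quartile 57 of 489 rose and 240 fell (median -0.93). The members' shares were 68.5% higher and 0.26% lower in the lowest quartile and 11.7% and 49.1% in the highest, against 78.1% and 1.07%, and 8.16% and 71.8%, of all genes. For genes touching 1 or 2 bins they were 60.2% and 1.37%, and 8.36% and 61.6%. The medians over all genes in the lowest and highest quartiles were 1.41 and -1.16, so the order is that of genes in general and not a result about the class. With spike-in scaling the 4 medians were 0.17, -0.27, -1.51 and -2.20, so the order was the same while only the lowest quartile stayed above 0. The filter on low values removed more genes from the lowest quartile than from the others, so these counts cover the tested genes and not all members.

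In the other naive mutants as well, both lower quartiles had medians above 0 and both upper ones below 0. In LBRKO the medians from the lowest to the highest quartile were 0.40, 0.44, -0.07 and -0.45, and 123 genes of the highest quartile fell while 50 rose (25.2% lower, against 48.7% of all genes there). In TKO they were 0.59, 0.50, -0.13 and -0.45, with 103 lower and 39 higher in the highest quartile (21.1% and 7.98%, against 45.0% and 6.33% of all genes there). In EpiLC QKO the lowest and highest quartiles had medians of 0.30 and -0.23. There 28 of 384 rose in the lowest and 58 of 571 fell in the highest, while 35.9% and 35.5% of all genes did so.

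**Figure D3:**
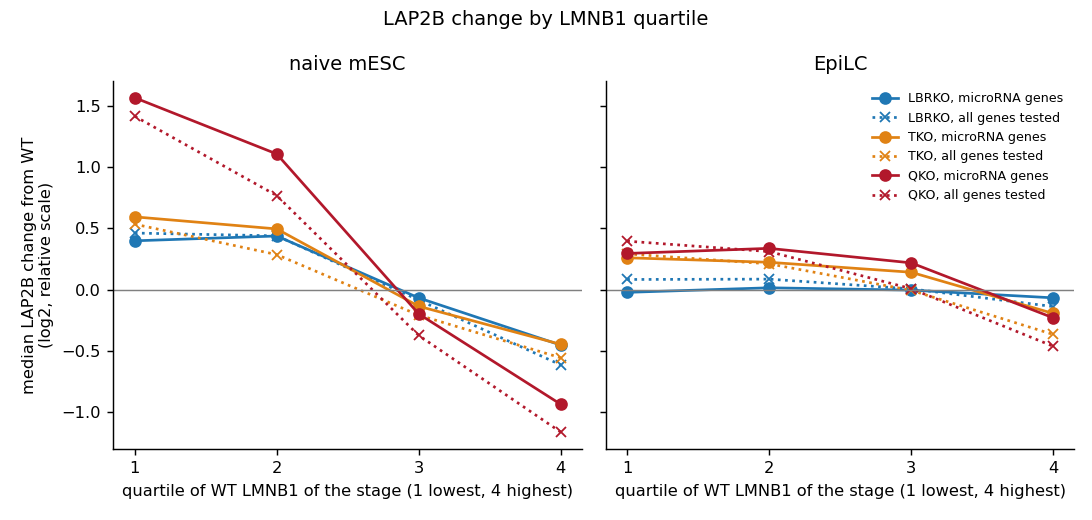
Median log2 change of LAP2B from WT (relative scale) of microRNA genes in each quartile of WT LMNB1 of the same stage, with the medians over all genes drawn for comparison, for naive cells (left) and EpiLC (right). Naive QKO runs from 1.57 in the lowest quartile to -0.93 in the highest.

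The place of the hairpin in its host gene separated the changes as well. Of the genes that overlap an exon of a protein-coding gene on the same strand, 210 of 294 rose and 15 fell in naive QKO (median 1.62). Their median level went from 0.978 in WT to 2.97 ± 0.394 in QKO, and their IGG level in naive WT was 1.37, the highest of the 5 places. Intergenic microRNA genes went the other way, with 101 of 438 higher and 144 lower (median -0.41), a level of 0.814 in QKO and an IGG level of 0.922. The part of the control signal in this difference was not tested, since QKO has no IGG libraries. Of all genes 38.5% rose and 34.4% fell in naive QKO, and of genes touching 1 or 2 bins 27.8% and 30.5%.

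Genes in introns of protein-coding genes on the same strand lay between these, with 261 of 648 higher and 92 lower (median 0.42). Those on the opposite strand of protein-coding genes had a median of 0.36 (104 of 294 higher and 47 lower), and those inside lncRNA genes had a median of 0.26 (106 of 345 higher and 74 lower). The exon group held 14.2% of its genes in the highest naive LMNB1 quartile and the intergenic group 28.7%, so place and WT LMNB1 class moved together. In naive LBRKO the exon group had 89 genes higher and 5 lower and the intergenic group 25 higher and 113 lower. Of all genes 30.8% rose and 24.3% fell in naive LBRKO.

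The miR-290 cluster, the main microRNA cluster of naive cells, gained LAP2B in cells without lamins. Its 9 genes lie at chr7:3267300-3269515 (GRCm39) in 3 sets of bins, within and beside Nlrp12 and mostly on its opposite strand, and none was in the highest naive LMNB1 quartile. Its mean level was 0.294, 0.581 and 0.622 in the naive WT libraries and 1.01, 0.996 and 1.45 in LBRKO. It was 2.01, 1.65 and 1.69 in TKO and 4.30, 3.11 and 4.40 in QKO. No library of a genotype overlapped those of another, and the order was WT, LBRKO, TKO and QKO on this scale. All 9 genes rose in naive TKO (median change 1.06) and in naive QKO (2.46), and 3 rose in naive LBRKO. Of all genes 24.8%, 38.5% and 30.8% rose in naive TKO, QKO and LBRKO, and of all tested microRNA genes 18.8%, 38.7% and 16.5%. With the deposited scaling the level was 0.121, 0.326 and 0.284 in WT, below every mutant library, while LBRKO (0.433, 0.533 and 0.865), TKO (0.466, 0.629 and 0.451) and QKO (0.730, 0.476 and 0.744) overlapped each other. All 9 still rose in naive QKO (1.03) on that scale, 4 rose in TKO and 3 in LBRKO. Of all tested microRNA genes 11.7%, 3.37% and 17.1% rose in naive QKO, TKO and LBRKO on that scale.

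Within the cluster the change was largest in the bin that holds Mir293, Mir294 and Mir295. Mir295 read 0.143, 0.814 and 0.100 in the naive WT libraries and 5.43, 3.85 and 5.43 in QKO. Its log2 change was 3.80 (SE 0.41, limma adjusted p = 1.53e-11) in QKO, 2.88 (adjusted p = 1.21e-07) in TKO and 2.25 (adjusted p = 8.48e-06) in LBRKO. With spike-in scaling these were 2.37, 2.23 and 2.41. Mir290a, in the bin at the other end, read 0.286, 0.465 and 1.00 in WT and 3.79, 2.47 and 3.93 in QKO (log2 change 2.46, SE 0.42, limma adjusted p = 1.16e-06). Mir291b has the bin between them to itself, so the count of 9 rests on 3 measurements.

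The miR-290 cluster also differed between WT stages. Its level was 1.51, 1.92 and 1.18 in the EpiLC WT libraries, above all naive WT libraries, and all 9 genes rose (median 1.17). Of all tested microRNA genes 7.43% rose between these stages, and 31.0% of all genes were called either way. Mir295 rose by 2.24 (limma adjusted p = 3.99e-05) and by 2.47 on the spike-in scale. The IGG level of the cluster was 1.56 ± 0.557 in naive and 2.38 ± 0.792 in EpiLC WT cells, above its mean LAP2B level in WT cells of either stage. The part of this background in the changes was not tested. In EpiLC the mutants differed less from WT, and 5 of the 9 genes rose in QKO (median 1.06) on the relative scale and none on the spike-in scale. Of all tested microRNA genes 9.21% rose in EpiLC QKO on the relative scale, and 35.6% of all genes were called either way.

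The miR-302 cluster had the opposite setting. Its 5 genes, including Mir367, lie at chr3:127338877-127339456 within an intron of Larp7 on the opposite strand, in 2 sets of bins, and all 5 were in the highest LMNB1 quartile in both stages. Its mean level was 2.17, 2.19 and 3.08 in naive WT and rose to 4.39, 4.12 and 4.45 in naive LBRKO. The groups did not overlap. In naive TKO it was 3.21, 2.09 and 3.17, and in naive QKO 4.13, 2.80 and 3.14, both of which overlapped WT.

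Mir302a, whose bin also holds Mir302c, Mir302d and Mir367, read 1.86, 1.74 and 3.10 in naive WT and 3.82, 3.79 and 3.75 in LBRKO (log2 change 0.78, SE 0.33, limma adjusted p = 0.0397). This call was lost with edgeR (adjusted p = 0.0563), with the mean of the library as its scale (adjusted p = 0.0581) and without any of 5 of the 6 libraries. In EpiLC Mir302a read 1.26, 0.765 and 1.49 in WT and 3.01, 3.08 and 2.93 in LBRKO, a change of 1.33 (limma adjusted p = 0.00175) that was called with every alternative. All 5 genes rose in EpiLC LBRKO on both scales. Of all tested microRNA genes 4.01% rose there on the relative scale and 2.63% on the spike-in scale. The shares of all genes called either way were 22.0% and 8.35%. In WT the 5 genes fell from naive to EpiLC on the relative scale (median -0.87), but Mir302a did not pass on the spike-in scale (-0.69, adjusted p = 0.273). On the relative scale 4.61% of all tested microRNA genes fell between the WT stages, and 31.0% of all genes were called either way. The IGG level of the cluster was 1.42 in naive and 2.31 in EpiLC WT cells.

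The 2 large imprinted clusters moved in opposite directions in naive QKO on the relative scale, and the first of them changed sign on the spike-in scale. The 67 microRNA genes between Dlk1 and Dio3 on chromosome 12, which are transcribed from the maternal allele, held none in the highest naive LMNB1 quartile and 26 in the lowest. Their mean level was 0.937, 1.1 and 1.09 in naive WT and 2.08, 1.80 and 2.14 in QKO. In naive QKO 32 of those tested rose and none fell (median 0.96), and in naive TKO 11 rose (0.50). The run from Mir379 to Mir3072 holds 44 genes in 27 sets of bins and that from Mir770 to Mir136 holds 16 in 11. These counts are thus not of separate measurements. Of all tested microRNA genes 38.7% rose in QKO and 18.8% in TKO, against 38.5% and 24.8% of all genes. On the spike-in scale the sign was the opposite, with 9 lower in QKO (median -0.45) and 8 lower in TKO (-0.17). The medians over all genes on that scale were lower still, at -1.29 and -0.67. There 48.6% and 25.6% of all tested microRNA genes fell in QKO and TKO. Of all genes 75.1% and 48.3% were called either way on that scale. In naive LBRKO none rose and 2 fell, and the level was 0.802 to 0.899, below all WT libraries. Of all genes 30.8% rose and 24.3% fell in naive LBRKO on the relative scale.

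The 119 microRNA genes inside Sfmbt2 (chr2:10470098-10523090), a paternally expressed block known for its role in the placenta, had a lower mean level in each naive mutant, with no overlap with WT. Their mean level was 0.950, 1.08 and 0.920 in naive WT. It was 0.543 to 0.667 in LBRKO, 0.615 to 0.667 in TKO and 0.510 to 0.588 in QKO. Of the 97 tested, LBRKO had 19 lower (19.6%), TKO 14 (14.4%) and QKO 24 (24.7%), and none rose in any of them. The 119 genes of the block occupy 61 sets of bins, so its counts and shares are not of separate measurements. Of all genes 24.3%, 22.3% and 34.4% fell, and of all tested microRNA genes 11.7%, 8.47% and 18.4%. Of genes touching 1 or 2 bins 30.5% fell in QKO. The shares of the block thus lay below those of all genes and above those of the class. With spike-in scaling all 97 fell in naive QKO (median -1.88). On that scale 48.6% of all tested microRNA genes fell, and the median over all genes was -1.29. Hairpins of this block are near-identical copies, so reads can be split or lost among them and the values of single copies are uncertain. Of the 22 genes between Slitrk2 and Fmr1 on the X chromosome 1 passed the filter, and it was not called in any naive mutant on the relative scale. The mean level over the 22 was 0.519, 0.719 and 0.536 in naive WT, and lay between 0.195 and 0.231 for LBRKO, 0.367 and 0.419 for TKO and 0.247 and 0.277 for QKO, so each mutant lay below WT. The IGG level was 0.332 to 0.431 in naive WT, and the means, which rest mostly on genes too low to be tested, were given no test.

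A block of lamina-associated miR-344 genes lost LAP2B on both scales. The run from Mir344d-3 to Gm54962 (6 genes, chr7:61375997-61400285) was wholly in the highest naive LMNB1 quartile. All 6 fell in naive QKO (median -1.94), 4 fell in LBRKO (-1.29) and 3 in TKO (-0.92), and on the spike-in scale the QKO median was -3.09. In that quartile 71.8%, 48.7% and 45.0% of all genes fell in QKO, LBRKO and TKO. Of genes there touching 1 or 2 bins 61.6%, 35.6% and 23.2% fell. The QKO median of all microRNA genes there was -0.93, or -2.20 on the spike-in scale. The 7 genes that share 1 miR-344 seed all fell in naive LBRKO and in naive QKO (medians -1.52 and -1.84). Mir344g read 2.64, 2.91 and 2.20 in naive WT and 0, 0.804 and 0.374 in QKO (log2 change -2.93, SE 0.50, limma adjusted p = 1.07e-06).

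The miR-17-92 cluster and its paralogues, which promote proliferation, and the let-7 family showed few shared changes. Of all genes 30.8%, 24.8% and 38.5% rose and 24.3%, 22.3% and 34.4% fell in naive LBRKO, TKO and QKO. Of all tested microRNA genes 16.5%, 18.8% and 38.7% rose and 11.7%, 8.47% and 18.4% fell. Of the 15 genes of the first group, 4 rose and 6 fell in naive LBRKO, 3 rose in TKO and 4 rose in QKO. The 6 that fell are the genes from Mir17 to Mir92-1, which share 1 bin at chr14:115281103-115281938, with Mir17 at 1.43, 1.63 and 1.00 in WT and 0.361, 0.517 and 0.659 in LBRKO (log2 change -1.25, SE 0.44, limma adjusted p = 0.0140). This call was lost without WT replicate 2 (adjusted p = 0.0570) or LBRKO replicate 1 (adjusted p = 0.0643). Of the 10 tested let-7 genes, 1 rose and 1 fell in both naive LBRKO and naive QKO, and 2 rose and 1 fell in TKO. The gene that fell was Mirlet7c-1, in an intron of the lncRNA Mir99ahg and in the highest LMNB1 quartile. It read 2.14, 4.42 and 2.80 in naive WT, 0.413, 0.172 and 0.527 in LBRKO (log2 change -2.80, limma adjusted p = 2.59e-07) and 0.714, 1.03 and 0.374 in QKO (-2.02, adjusted p = 3.99e-05).

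**Figure D4:**
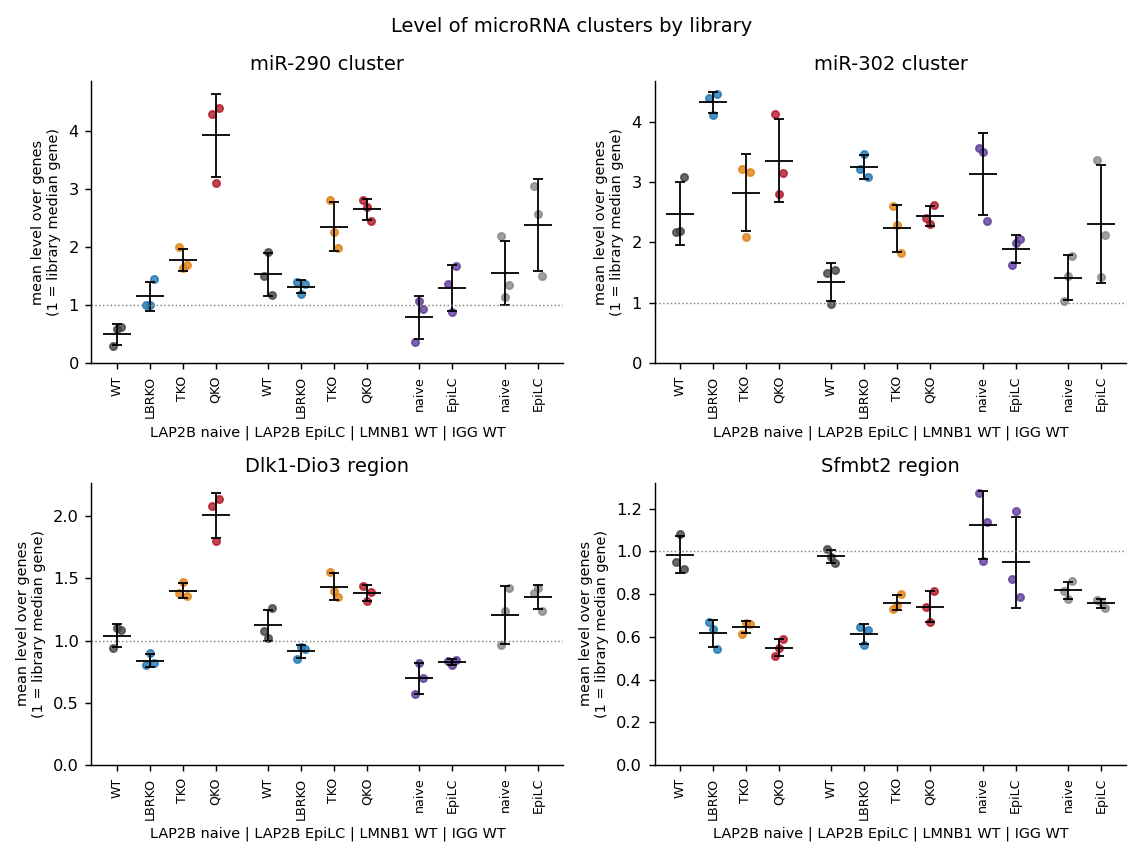
Mean relative level (1 is the median gene of the library) of the microRNA genes of 4 clusters in LAP2B libraries of each genotype and stage and in WT LMNB1 and IGG libraries. Points are libraries and bars are mean and SD; the miR-290 cluster rises from 0.294 to 0.622 in naive WT to 3.11 to 4.40 in naive QKO, while the Sfmbt2 block lies below WT in each naive mutant.

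MicroRNA genes known for other cell types, listed by tissue, moved both ways on the relative scale. The background for these counts is that 38.7% of all tested microRNA genes rose and 18.4% fell in naive QKO, as did 38.5% and 34.4% of all genes. In naive QKO 8 of 18 neuronal genes rose and 3 fell, 4 of 9 muscle genes rose and 1 fell, and 5 of 10 blood and immune genes rose and 4 fell. Of the 7 epithelial genes 6 rose and 1 fell (median 1.58), of the 9 liver and pancreas genes 3 rose and 2 fell, and of the 6 genes of the miR-34 family 2 rose and 2 fell. On the spike-in scale the neuronal list had 3 higher and 8 lower, and the epithelial list 2 higher and 1 lower. There 11.7% of all tested microRNA genes rose and 48.6% fell, and 75.1% of all genes were called either way. In naive LBRKO the same 6 lists had between 1 and 3 genes higher and at most 1 lower. In naive TKO they had between 1 and 4 higher and at most 3 lower. Of all genes 30.8% rose and 24.3% fell in naive LBRKO, and 24.8% rose and 22.3% fell in naive TKO.

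Mir141 is an example from the epithelial list, where it acts with miR-200 against the epithelial to mesenchymal transition. It read 1.57, 2.32 and 1.00 in naive WT and 11.3, 7.75 and 7.49 in QKO, with no overlap (log2 change 2.42, SE 0.31, limma adjusted p = 1.69e-09), and the change was 0.92 (adjusted p = 0.0223) on the spike-in scale.

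The genes with the largest increases in naive QKO had been low in WT, a trait that ranking by log2 change favours. Mir5132, over an exon of Irak1 (chrX:73067134-73067204), read 0.5, 0 and 0.8 in WT and 10.9, 5.57 and 11.9 in QKO (log2 change 4.58, SE 0.46, limma adjusted p = 2.46e-12). Mir1934 (chr11:69553869-69553951) read 0.429, 0.697 and 1.00 against 12.1, 12.4 and 19.9 (4.23, adjusted p = 1.62e-15). Mir6936, over an exon of the deacetylase gene Sirt7, read 0.857, 0.465 and 1.20 against 17.7, 10.6 and 13.2 (3.94, adjusted p = 8.41e-14).

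Mir6955 in an intron of Gga1 (4.02) and Mir7048 in an intron of Dedd2 (3.97) lay between Mir1934 and Mir6936. All 5 were in the lowest or second LMNB1 quartile, were called with every alternative and also rose on the spike-in scale, by 3.26, 2.74, 2.46, 2.72 and 2.74 in the order Mir5132, Mir1934, Mir6936, Mir6955 and Mir7048.

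Of the 5 largest decreases in naive QKO, those of Gm55225, Gm56328, Mir344g and Gm54561 were in genes of the highest quartile. Gm55225 (chr3:133852776-133852869) read 5.43, 4.88 and 4.30 in naive WT and 0.857, 0.804 and 0.187 in QKO (log2 change -2.98, SE 0.36, limma adjusted p = 3.51e-10). Gm54561, in an intron of the synaptic gene Nrxn3 on the opposite strand, fell by 2.79 in QKO and by 2.62 in LBRKO, from 2.71, 3.84 and 3.20 in WT to 0.928, 0.172 and 0.461 in LBRKO. The other was Gm55504 (chr17:40362795-40362904, intergenic, in the third LMNB1 quartile), which read 0.857, 1.63 and 1.60 in naive WT and 0 in all 3 naive TKO and all 3 naive QKO libraries. No fold is given against 0. In EpiLC it read 1.18, 0.765 and 1.30 in WT and 0 to 0.112 in TKO and QKO. QKO was made from TKO, so line and genotype cannot be told apart here.

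Genes among the 5 with the largest rise in naive LBRKO or TKO were also low in WT, which the ranking by log2 change favours here too. Mir21a, the abundant microRNA encoded in the last part of Vmp1, read 0.143, 0.232 and 1.40 in naive WT and 4.02, 2.16 and 2.90 in LBRKO (log2 change 2.62, limma adjusted p = 6e-06). Mir7578, over an exon of Brd3, a reader of acetylated histones, read 0.286, 0 and 0.400 in WT. It read 1.13, 1.21 and 1.91 in LBRKO (2.46, adjusted p = 7.16e-06) and 0.929, 2.75 and 1.83 in TKO (2.73, adjusted p = 1.65e-06). In TKO the falls below that of Gm55504 included Mir683-2 (-2.81) and Mir680-1 (-2.40), and the call of Mir680-1 was lost without TKO replicate 2 (adjusted p = 0.0510).

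Copies of the same mature microRNA at separate loci were compared by their WT LMNB1 class and LAP2B change. No comparison with sets of unrelated genes was made, so the counts below are descriptions. There were 38 mature microRNAs encoded by genes in separate runs (78 distinct genes, since 1 hairpin can give 2 of them). For 11 of them all copies were in the same naive LMNB1 quartile, and for 5 (miR-19b, miR-29b, miR-692, miR-92a and let-7c) copies were in both the lowest and the highest. Of the miR-692 copies 1 was too low to be tested, and the lowest naive WT LAP2B level among them was 0. The copies of miR-19b and miR-92a lie in the same bins as each other and so have the same values. In naive QKO, 19 of the 38 had a copy that rose and 16 a copy that fell. Of all tested microRNA genes, taken singly, 38.7% rose and 18.4% fell. Those shares are per gene, while a mature microRNA counts when any of its copies is called, so they cannot be compared directly. For 4 of them (miR-135a, miR-199a-5p, miR-199a-3p and miR-29b) at least 1 copy rose and another fell. These rest on 3 groups of genes, because both miR-199a strands come from Mir199a-1 and Mir199a-2.

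The copies of miR-29b, miR-199a and miR-135a are described because of these values. Mir29b-1 (chr6:31039958-31040028) read 0.214, 0.116 and 0.5 in naive WT and 1.21, 0.689 and 0.655 in QKO (log2 change 1.42, limma adjusted p = 0.00190). Mir29b-2 (chr1:194719348-194719428) read 5.43, 5.46 and 4.00 in WT and 2.00, 1.38 and 1.03 in QKO (-1.72, adjusted p = 6.06e-05). On this relative scale, used for all copies here and below, the copy with little LAP2B in WT rose and the copy with much fell. The relative rise of Mir29b-1 need not be a rise on the spike-in scale, where the median change over all genes in naive QKO was -1.29.

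The miR-199a copies lie in introns of dynamin genes, on the opposite strand. Mir199a-1, in Dnm2, read 0.286, 0.465 and 0.600 in naive WT and 7.57, 4.25 and 5.52 in QKO (log2 change 3.42, limma adjusted p = 2.19e-09). Mir199a-2, in Dnm3, read 3.21, 2.56 and 3.60 in WT and 0.714, 0.689 and 0.749 in QKO (-1.97, adjusted p = 4.47e-06). Mir135a-1 on chromosome 9 rose by 1.45 and Mir135a-2 on chromosome 10, in the lncRNA Rmst, fell by 1.58. Of the miR-9 genes, known for neural development, Mir9-1 rose by 2.36 and Mir9-3 by 1.5, and Mir9-2 had a change of -0.11 that was not called.

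**Figure D5:**
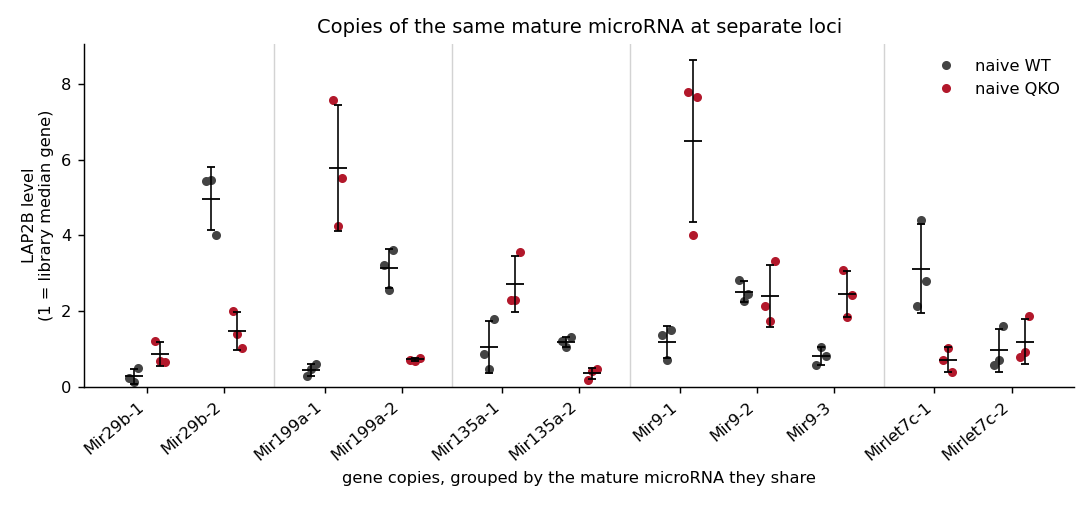
Relative LAP2B level (1 is the median gene) in naive WT and naive QKO libraries of gene copies that encode the same mature microRNA at separate loci. Points are libraries and bars are mean and SD; Mir29b-2 and Mir199a-2 fall in QKO while Mir29b-1 and Mir199a-1 rise.

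In EpiLC far fewer microRNA genes differed from WT. On the relative scale 81 rose and 45 fell in LBRKO (6.24%, against 22.0% of all genes and 8.04% of short genes), and 26 rose and 30 fell in TKO (2.77%, against 18.0% and 4.61%). In QKO 186 rose and 76 fell (13.0%, against 35.6% and 14.2%). With spike-in scaling 6 rose and 597 fell in QKO (54.0% of all genes called), 4 rose and 42 fell in TKO (8.71%) and 53 rose and 20 fell in LBRKO (8.35%). Without 1 library these spike-in counts ranged over 381 to 724 in QKO, 24 to 65 in LBRKO and 1 to 102 in TKO, with 1 without EpiLC WT replicate 1 and 102 without TKO replicate 1. The relative counts ranged over 136 to 229 in QKO, 78 to 99 in LBRKO and 25 to 58 in TKO.

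Mir423, in an intron of Nsrp1, read 1.69, 1.00 and 0.558 in EpiLC WT and 3.96, 4.34 and 4.06 in LBRKO (log2 change 1.95, limma adjusted p = 1.56e-05). Mir6914, over an exon of Ankrd52, read 0.337, 0.824 and 0.372 in EpiLC WT and 4.53, 3.69 and 2.16 in QKO (2.57, adjusted p = 4.65e-06). Mir448, in an intron of the serotonin receptor gene Htr2c, read 1.60, 0.706 and 1.30 in WT and 0.184, 0.187 and 0.421 in QKO (-1.83, adjusted p = 0.00537). These genes were named from called genes whose mutant and WT libraries did not overlap, so the lack of overlap is set by that choice. Mir3962 fell in EpiLC TKO from 2.22 ± 0.908 to 0.567 ± 0.359 (-1.92, adjusted p = 0.00109).

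The comparison of WT EpiLC with WT naive cells asks how LAP2B and LMNB1 signal changed with the stage. In LAP2B 150 microRNA genes rose and 93 fell on the relative scale (12.0%, against 31.0% of all genes and 12.4% of short genes). The counts were 231 and 55 with each library divided by its mean and 158 and 23 on the spike-in scale (12.4% of all genes called). In the lowest naive LMNB1 quartile 57 rose and 2 fell, and in the highest 7 rose and 66 fell. These are 14.7% higher and 13.5% lower, against 43.6% and 41.7% of all genes in those quartiles. Without naive WT replicate 2 the relative count was 139, and without EpiLC WT replicate 3 the spike-in count was 72. LMNB1 called 33 higher and 31 lower (3.17%, against 12.7%), or 54 and 21 by the mean, and 57 and 6 on the spike-in scale (6.0% of all genes called). The LMNB1 counts rested on single libraries. The relative count of 64 became 12 and 14 without EpiLC replicates 1 and 3, and 28, 98 and 31 without naive replicates 1, 2 and 3. The spike-in count of 63 became 0 without naive replicate 1 or EpiLC replicate 1 or 3, 153 without EpiLC replicate 2, and 3 with a replicate block.

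In IGG limma called none of the microRNA genes on either scale (0.198% of all genes were called on the relative and 0.00427% on the spike-in scale), while 117 had an unadjusted p under 0.05 on the relative and 557 on the spike-in scale. edgeR called 1 on the relative scale and none on the spike-in scale. Without EpiLC replicate 3 limma called 313 on the spike-in scale, and without EpiLC replicate 2 it called 12.

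Mir205, an epithelial microRNA gene in the lncRNA Mir205hg (chr1:193189771-193189838), lost LAP2B from naive to EpiLC. Its LAP2B level read 4.14, 5.23 and 3.60 in naive and 1.18, 0.941 and 1.30 in EpiLC WT (log2 change -1.83, SE 0.32, limma adjusted p = 1.82e-05). Its LMNB1 level read 4.87, 2.82 and 3.87 in naive and 1.17, 1.69 and 1.71 in EpiLC WT (-1.27, adjusted p = 0.0146), but the change was not called on the spike-in scale (-0.98, adjusted p = 0.102), and it was in the highest LMNB1 quartile in both stages. The intergenic Gm55395 (chr3:137327235-137327354) fell in both antibodies. Its LAP2B level went from 6.00, 6.97 and 5.20 to 1.43, 1.24 and 0.836 (-2.30, adjusted p = 4.18e-06) and its LMNB1 level from 6.20, 4.76 and 5.41 to 1.69, 1.69 and 2.17 (-1.51, adjusted p = 0.00228). The LMNB1 call of Gm55395 was lost without the filter on low values (adjusted p = 0.0529). Among increases, Mir7578 went from 0.229 ± 0.206 to 1.28 ± 0.251 in LAP2B (2.34, adjusted p = 6.52e-05).

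Whether a mutant differed from WT by the same amount in both stages was tested with an interaction term. For QKO 431 microRNA genes had a different effect in EpiLC than in naive cells, 74 with a higher and 357 with a lower effect (21.3%, against 41.7% of all genes and 19.4% of short genes). The counts were 127 and 222 with each library divided by its mean. With the spike-in scale they were 102 and 122 for QKO (27.7% of all genes called), 2 and 17 for LBRKO (1.01%) and 3 and 2 for TKO (0.549%). For LBRKO 21 were higher and 71 lower (4.56%, against 19.5% of all genes and 4.73% of short genes), and for TKO 10 were higher and 36 lower (2.28%, against 8.67% and 2.6%). Without 1 library these ranged over 57 to 127 for LBRKO and 21 to 73 for TKO. For Mir295 the QKO effect was lower in EpiLC by 3.24 (limma adjusted p = 9.99e-06), since the EpiLC change was 0.56 (adjusted p = 0.292).

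The protein-coding genes of the microRNA pathway, which are not members of the class, mostly rose in LAP2B on the relative scale. Of the 23 tested, among them Drosha, Dgcr8, Dicer1 and the Argonaute genes, 19 rose in naive LBRKO and none fell. In naive TKO 18 rose and 2 fell, and in naive QKO 20 rose and 1 fell (median 1.57). Of all genes 30.8%, 24.8% and 38.5% rose in naive LBRKO, TKO and QKO, and 78.1% of those in the lowest LMNB1 quartile rose in QKO. Of the 24 listed, 11 were in the lowest naive LMNB1 quartile and 1 in the highest. With spike-in scaling 8 rose and 5 fell in naive QKO and 1 rose and 5 fell in naive TKO. On that scale 75.1% and 48.3% of all genes were called either way.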

How the data were processed

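CUT&RUN libraries were analysed for LAP2B (24), LMNB1 (6) and IGG (6), and 2 H3K9me3 libraries, the transposable element tables and the authors' z score columns were not analysed here. The authors aligned reads to mm39 with Bowtie2 (2.3.5.1), kept properly paired primary alignments with SAMtools (1.10), removed duplicates, took RPKM in bins of 1 kb with deepTools and multiplied by a yeast (sacCer3) spike-in factor. The deposited signal of a gene was taken as the sum over the bins it touches, a step that the sources do not state. The bin width was checked by the equal values of genes sharing 1 bin, seen in 343 of 343 such sets. That check covers genes of 1 bin only, so it cannot tell a sum from a mean over bins. The deposited signal was divided here by the number of bins, so a hairpin is read through its surroundings of 1 kb. In each library 100.0% of values were whole multiples of 1 read (tolerance 0.05), which gave read counts for edgeR (4.0.16). IGG was not subtracted.

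Levels were log2 transformed with a pseudocount of 0.1 of the median gene after removal of the lowest 0.1 of genes, and fitted with limma (3.58.1, R 4.3.3) over all genes of an antibody. Adjusted p values are Benjamini-Hochberg values over all genes tested, at a threshold of 0.05. The test was also run on simulated data, and no result given here rests on that run. LMNB1 quartiles were cut over all genes from the mean of the WT libraries of a stage, so LMNB1 values by quartile are descriptions. Replicate numbers were taken from the labels, and where nothing says that replicates were separate cultures the p values measure the spread between these libraries only. Positions and host genes come from the GRCm39 annotation. Members and lists were chosen with earlier results of these data known. Genes named were those of the lists, the 5 largest rises and falls per comparison among called genes whose libraries did not overlap (1 per run), and the highest and lowest WT levels, of which part is given. The copies of miR-29b, miR-199a and miR-135a were chosen after their values were seen. The alternatives were another pseudocount, no filter, genes touching 1 or 2 bins, deposited sums, the library mean or chromosome median as scale, edgeR, a replicate block and leaving out each library.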

Additional observations from a re-analysis of the deposited data

Results flagged for a closer look

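The effect of a mutation on LAP2B differed between EpiLC and naive cells by an interaction term in limma for 431 microRNA genes in QKO, 92 in LBRKO and 46 in TKO. These were 21.3%, 4.56% and 2.28% of those tested, against 41.7%, 19.5% and 8.67% of all genes. For genes touching 1 or 2 bins the shares were 19.4%, 4.73% and 2.6%. The counts were 224, 19 and 5 on the spike-in scale, where 27.7%, 1.01% and 0.549% of all genes were called. All values below are the mutant effect in EpiLC minus that in naive cells on the relative scale (log2, adjusted p over all genes).

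Most genes named here were chosen for the size of their naive change, which is part of this difference, so its direction in them is set by that choice and no pattern is read from it. In QKO the difference was -3.52 for Mir1934 (adjusted p = 5.96e-08), -3.50 for Mir5132 (adjusted p = 2.23e-05), -3.24 for Mir295 (adjusted p = 9.99e-06), -3.07 for Mir6955 (adjusted p = 0.0001), -2.99 for Mir7048 (adjusted p = 0.000973) and -2.50 for Mir6936 (adjusted p = 7.07e-05). It was -2.59 for Mir199a-1, -2.20 for Mir9-1 and -1.62 for Mir29b-1. It was 2.57 for Gm54561, 2.33 for Mir344g and 1.31 for Gm55225 (adjusted p = 0.0329). For Gm55504, among the largest falls as well, it was 0.60 (adjusted p = 0.541) and was not called.

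In LBRKO the difference was 2.96 for Gm54561 (adjusted p = 0.00138) and 1.77 for Mirlet7c-1 (adjusted p = 0.0307). It was -2.63 for Mir7578, -2.18 for Mir451a and -2.17 for Mir7670. In TKO it was 3.46 for Mir683-2, -2.84 for Mir7578, -2.48 for Mir7048 and -2.37 for Mir293. The differences of Mirlet7c-1 and Mir7670 in LBRKO and of Mir293 and Mir7048 in TKO were not called on the spike-in scale.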

How the results depend on the processing

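Depth limits single genes, since a median of 8 to 31 reads lay over a microRNA gene, and 3 libraries per group carried each test. Among the named genes no called change reversed its direction in any alternative on the relative scale. Other called changes were not checked for this. The lamina contrast, which has no test, changed sign. It went from -0.27 to 0.75 in naive QKO with the classes of the other stage. With classes by LMNB1 over IGG it went from 0.98 to -0.22 in naive TKO and from 1.25, 0.90 and 0.85 to -0.14, -0.69 and -1.08 in EpiLC LBRKO, TKO and QKO. The call counts of naive LBRKO, TKO and QKO stayed within 1.5 times under every alternative to the pseudocount, filter, scale, gene set and tool; edgeR called 502, 425 and 1140 against 570, 550 and 1154. Of 56 called changes of named genes, 44 were called under every alternative, and none changed sign. The other changes of value are listed by setting, with the cause not tested unless fewer genes or libraries were used.

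With genes touching 1 or 2 bins alone, relative counts were 36 in EpiLC LBRKO, 5 in TKO, 103 in QKO, 128 between WT stages, 14 in LMNB1, and 9, 10 and 287 for the LBRKO, TKO and QKO interactions; spike-in counts were 20, 13, 109 between WT stages, 0 in LMNB1 and 2 in IGG. Without the filter LMNB1 had 10 (relative) and 0 (spike-in), and spike-in EpiLC LBRKO and the WT stages had 44 and 61. With a pseudocount of 0.5 IGG had 3 (relative) and 1 (spike-in), and spike-in EpiLC LBRKO, TKO and LMNB1 had 112, 74 and 27. With edgeR the TKO interaction had 26, relative IGG 1, spike-in EpiLC LBRKO 41 and spike-in WT stages 95. Deposited sums gave 30 for the TKO interaction and 3 for IGG. By limma with a replicate block spike-in LMNB1 had 3 called genes against 63, and the block moved no other count by over 1.5 times (1151 against 1154 in naive QKO). Replicate numbers did not pair the libraries, since deviations of same-numbered libraries correlated at -0.09 to 0.14 and those of others at -0.10 to 0.14.

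With classes by LMNB1 over IGG the lamina contrast of WT, LBRKO, TKO and QKO was 1.05, 0.10, -0.22 and -1.80 in naive cells and 0.058 in EpiLC WT. With classes of the other stage naive TKO and QKO were at 1.27 and 0.75 and the EpiLC genotypes at 0.95, 1.02, 0.35 and 0.15. With medians over genes naive LBRKO, TKO and QKO were at 0.86, 0.77 and -0.60 and the EpiLC genotypes at 1.06, 1.04, 0.66 and 0.55. EpiLC QKO was at 0.81 with 1 gene per set of bins and 0.80 with deposited sums. As a mean over genes the class level was 1.19, 1.28, 1.32 and 2.03 in naive LAP2B, 1.20 in LMNB1 and 1.15 in IGG, and 1.16, 1.16, 1.22 and 1.32, 1.15 and 1.22 in EpiLC. Deposited sums gave 0.208, 0.199, 0.206 and 0.205, 0.203 and 0.229 in naive cells and 0.219, 0.214, 0.229 and 0.225, 0.217 and 0.223 in EpiLC, because a long gene sums more bins.

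Leaving out each library in turn, relative counts ranged over 418 to 529 in naive LBRKO, 357 to 494 in TKO and 1032 to 1097 in QKO, 78 to 99 in EpiLC LBRKO, 25 to 58 in TKO and 136 to 229 in QKO, 139 to 256 between WT stages, 12 to 98 in LMNB1 and 0 to 2 in IGG. Interactions ranged over 57 to 127 for LBRKO, 21 to 73 for TKO and 331 to 448 for QKO. Spike-in counts ranged over 334 to 512, 352 to 630 and 1068 to 1172 in naive LBRKO, TKO and QKO, 24 to 65, 1 to 102 and 381 to 724 in EpiLC, 72 to 226 between WT stages, 0 to 153 in LMNB1 and 0 to 313 in IGG. Single libraries that decided a count were naive WT replicate 2 (357 in relative and 352 in spike-in TKO, 139 between relative WT stages), EpiLC WT replicate 1 (80, 25 and 138 in relative EpiLC LBRKO, TKO and QKO, 1 in spike-in TKO and 381 in spike-in QKO) and EpiLC WT replicate 3 (72 between spike-in WT stages, 60 and 21 for the LBRKO and TKO interactions, 16 and 382 in spike-in EpiLC TKO and QKO). Others were naive WT replicate 3 (73 for the TKO interaction), naive LBRKO replicate 3 (334 in spike-in LBRKO, 57 for the interaction), EpiLC TKO replicates 2 and 3 (29 and 22 for the interaction), EpiLC QKO replicate 1 (136) and replicate 2 (151 relative, 387 spike-in). Leaving out any EpiLC LBRKO library gave 78, 83 and 81 (spike-in 34, 27 and 24), and any EpiLC TKO library 25, 26 and 30 (spike-in 102, 12 and 8), with 91 without EpiLC WT replicate 2. LMNB1 gave 28, 98 and 31 without naive replicates 1, 2 and 3 and 12 and 14 without EpiLC replicates 1 and 3 (spike-in 0, 26 and 111, then 0, 153 and 0 without EpiLC replicates 1, 2 and 3). Spike-in IGG gave 12 and 313 without EpiLC replicates 2 and 3, and relative IGG 2 without naive replicate 2. Without a library, lamina contrasts ranged over 1.71 to 1.92, 1.17 to 1.38, 0.92 to 1.09 and -0.33 to -0.23 in naive WT, LBRKO, TKO and QKO.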
